A study of Mus musculus with 6 samples.

Results

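The comparison described here set the 2 RNA-seq libraries of specific pathogen free (SPF) mice against the 4 libraries of mice without a microbiota, taken as 1 group. All 6 libraries of the series entered it. A gene was looked at by where its SPF libraries lay: both above the highest, or both below the lowest, of the 4 others. Genes on chromosomes X and Y were left out, and 13222 of the 47538 remaining genes had enough counts to be tested.

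Epithelial cells sorted from C57BL/6 small intestine gave the RNA, C57BL/6 being a standard inbred mouse strain. SPF mice carry a microbiota that lacks particular pathogens, and their libraries are replicates 3 and 4 of that group. Germ-free (GF) mice, here replicates 1 and 3, have no microbes in or on them. Antigen-free (AF) mice, here replicates 2 and 3, meet no foreign antigen from microbes or from food. By these definitions the pooled group differs from SPF in its lack of microbes, while the removal of food antigens belongs to the AF libraries alone. Sex-linked transcripts also separate SPF from the pooled group, as given below. The sources used here give neither age, diets nor the time of day of collection. They do not say whether libraries are from separate mice, so the spread behind each p-value may be technical.

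The small intestinal epithelium is a single cell layer that takes up nutrients and keeps microbes at bay. Absorptive enterocytes make up most of it, with goblet and Paneth cells that secrete mucus and antimicrobial proteins, tuft cells that sense luminal compounds, and enteroendocrine cells that release hormones. Microbes are known to set the level of antimicrobial lectins and of interferon-induced genes in this layer, and enterocytes run a circadian clock that responds to feeding and to microbial signals.

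Libraries of a group were not alike. They held 16109488 to 19417054 expected counts, and TMM scaling factors ran from 0.792 to 1.41, with 29.3% to 54.9% of the counts in the 20 most abundant genes and 17.9% to 35.3% in mitochondrial genes. SPF replicate 4 was poor in crypt RNA: its centred median log2 level was -2.49 for crypt stem cell genes, -2.56 for proliferation genes and -4.76 for Paneth cell genes, where SPF replicate 3 stood at 0.69, 1.10 and 0.62. Epithelial markers were high everywhere, with 17 general epithelial genes at 9153 to 11620 CPM summed. GF replicate 3 held more lymphocyte RNA than the others, with 526 CPM summed over 30 intraepithelial lymphocyte and T cell genes, against 32.6 to 314 CPM elsewhere. Xist, the RNA of the inactive X chromosome, had 130 and 96.3 CPM in the SPF libraries against 0.110, 14.8, 0 and 0.178 CPM in GF replicates 1 and 3 and AF replicates 2 and 3, whereas 4 Y-linked genes had no count in SPF and summed to 52.1 to 61.8 CPM in the 4 others. GF replicate 3 thus held both kinds of transcript. A difference that follows sex-linked transcripts therefore cannot be told apart from one between SPF and the pooled group. Leaving out X and Y genes does not change this for genes on other chromosomes. Names of each group also hold their own date-like number, so dates cannot be told apart from groups either.

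Below, levels are CPM, counts scaled to the TMM-adjusted total of each library. They are given in the order SPF replicates 3 and 4, then GF replicates 1 and 3 and AF replicates 2 and 3. Fitted log2 fold changes are SPF minus the pooled 4, ± SE. Positions are on GRCm38. SPF has n = 2 and the pooled group n = 4 libraries. A single count was worth 0.0365 to 0.0784 CPM.

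Both SPF libraries lay above the 4 others for 1567 genes (11.9% of those tested) and below them for 1517 genes (11.5%), together 23.3%. The genes below stood farther off, with a median log2 fold change of -1.08 against 0.52 for those above and -0.02 over all genes tested. A gap of 2-fold or more between the nearest SPF library and the nearest of the 4 was left by 42 genes above (0.318%) and 148 below (1.12%). By edgeR's quasi-likelihood test 0 genes passed an adjusted p of 0.05, the smallest being 0.282, while 1679 genes (12.7%) had an unadjusted p below 0.05, 914 higher (6.91%) and 765 lower (5.79%) in SPF. DESeq2's Wald test called 253 genes (1.91%), 105 higher (0.794%) and 148 lower (1.12%), of which 248 lay outside the range. The likelihood ratio test of edgeR called 209 (1.58%), and limma on TPM called 0. Where a DESeq2 adjusted p is printed below, the gene's adjusted p by edgeR's quasi-likelihood test was 0.282 or more. The split between above and below depends on the scale. On TPM, 1356 genes lay above and 572 below, so that 70.3% of the genes outside lay above instead of 50.8%, and only 555 and 450 genes were in both sets.

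**Figure D1:**
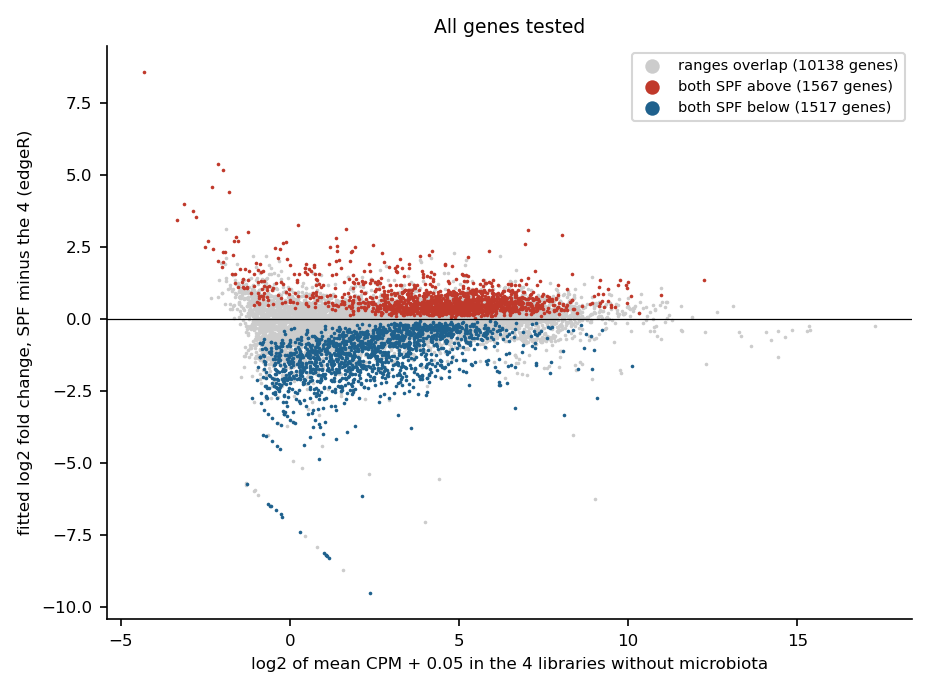
Each point is a gene tested, with its mean level in the 4 libraries without microbiota on the x axis (log2 of CPM + 0.05) and edgeR's fitted log2 fold change, SPF minus the 4, on the y axis. Red marks the 1567 genes with both SPF libraries above the 4 and blue the 1517 below. The blue points reach farther from 0 than the red at low levels.

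Among genes at 5 CPM or more, the 12 above the range with the smallest edgeR p were Sema6d, Ero1lb, Slc16a6, Exph5, Afm, Ifi44, Unc5cl, Paqr9, Tifa, B3gnt7, Slfn2 and Trim30a. None passed the adjusted edgeR threshold, with adjusted p of 0.282 for all 12, and all 12 passed DESeq2's. The genes were picked from the same libraries by their range and p, so the DESeq2 calls are no independent support. By limma on TPM their adjusted p ran from 0.143 to 0.616. Sema6d, a transmembrane semaphorin that acts through plexins (chr2:124089969-124667770), stood at 38 and 45.2 CPM in SPF against 18.5, 17.7, 17.1 and 17.8 CPM in the 4 others. The 4 were nearly equal and both SPF values stood clear of them, the nearest libraries being 2.06-fold apart. Its log2 fold change was 1.23 ± 0.14, with an adjusted p of 0.282 by edgeR and 2.24e-07 by DESeq2.

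Ero1lb encodes an oxidase of the endoplasmic reticulum that helps proteins form disulfide bonds (chr13:12565874-12611396). It stood at 12.6 and 24.1 CPM in SPF against 3.76, 2.84, 3.68 and 3.86 CPM, a log2 fold change of 2.37 ± 0.30 (DESeq2 adjusted p = 6.33e-07). Slc16a6, of the monocarboxylate transporter family, stood at 54.8 and 108 CPM against 14.9, 21.8, 17 and 15.6 CPM. In both genes SPF replicate 4 was about 2 times SPF replicate 3, so the groups stood apart while the SPF libraries spread widely. Exph5, an effector of the vesicle GTPase Rab27, stood at 37.4 and 56.8 CPM against 18.3, 18.3, 15.4 and 14.7 CPM.

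Afm, which encodes the vitamin E-binding plasma protein afamin, showed the widest gap of the 12, nearest libraries being 11.8-fold apart. Its levels were 3.98 and 12.2 CPM in SPF against 0.256, 0.339, 0 and 0.119 CPM in the others, the latter resting on few counts. Paqr9 stood at 11.7 and 23.7 CPM against 1.28, 2.64, 3.53 and 2.61 CPM. B3gnt7, which adds N-acetylglucosamine to glycan chains, stood at 45.9 and 32.1 CPM against 15.3, 13, 8.54 and 9.21 CPM, the AF libraries being the lowest. Unc5cl, a membrane-anchored death domain protein that activates NF-κB, stood at 84.8 and 70.2 CPM against 28.7, 38.7, 36 and 35.7 CPM. Slfn2, of the interferon-inducible Schlafen family, stood at 26.8 and 36.6 CPM against 5.62, 11.8, 8.23 and 10.1 CPM, with GF replicate 1 the lowest.

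The 12 genes named below the range were BC035947, Ndrg1, Fam43a, Nr1d1, Rogdi, Fgf15, Tef, Cutal, Nr1d2, Trp53inp1, Cnbd2 and Btbd3. Their edgeR adjusted p ran from 0.282 to 0.319, and limma's on TPM from 0.137 to 0.889. DESeq2 called all 12, again on the libraries they were picked from. BC035947 (chr1:78497026-78512158) had 0 counts in both SPF libraries and 339 in the 4 others, where it stood at 3.76, 5.55, 8.46 and 2.73 CPM. Against a floor of 3 counts over both SPF libraries it was at least 62.3-fold lower in SPF. It overlaps Mogat1, an acyltransferase gene of triglyceride synthesis on the opposite strand, which was also listed at 0 in SPF and stood at 1.10, 3.12, 2.59 and 1.07 CPM in the others. Without a stated strand setting, reads of the 2 genes cannot be told apart.

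Ndrg1, a gene induced by differentiation and low oxygen (chr15:66929318-66969640), stood at 32.3 and 28.5 CPM in SPF against 109, 75.4, 81.3 and 101 CPM. The SPF libraries were close together, the nearest of the 4 was 2.33-fold higher, and the log2 fold change was -1.59 ± 0.22 (DESeq2 adjusted p = 1.25e-07). Fgf15, the ileal hormone that restrains bile acid synthesis in the liver (chr7:144896531-144900953), stood at 3.39 and 1.71 CPM against 19.7, 11.2, 12.1 and 21.9 CPM, 6.30-fold lower in SPF. Fgf15 was low in every library, and the 4 others spread 2-fold among themselves without a split by GF and AF.

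Fam43a stood at 1.33 and 0.889 CPM against 5.92, 11.4, 6.11 and 7.13 CPM. Rogdi, which takes part in assembling the vacuolar proton pump, stood at 6.50 and 5.81 CPM against 13.5, 17.6, 22.6 and 19.4 CPM. Trp53inp1, a p53 target that acts in autophagy, stood at 4.76 and 3.35 CPM against 10.2, 10.4, 9.40 and 10.2 CPM. In all 3 the SPF libraries agreed more closely with each other than with any of the 4. Cutal (1.65 and 0.889 against 5.15, 5.42, 6.35 and 5.29 CPM), Cnbd2 (5.59 and 5.06 against 11.3, 11.1, 16.9 and 13.5 CPM) and Btbd3 (6.32 and 5.54 against 10.8, 12.8, 12.2 and 12.7 CPM) were lower by the same pattern. Of the 24 genes in both directions, Slc16a6, Tifa, BC035947, Nr1d1, Cutal and Cnbd2 overlap another expressed gene on the opposite strand, so their reads are uncertain without strand. The 3 clock genes Nr1d1, Nr1d2 and Tef are taken up with the clock.

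**Figure D2:**
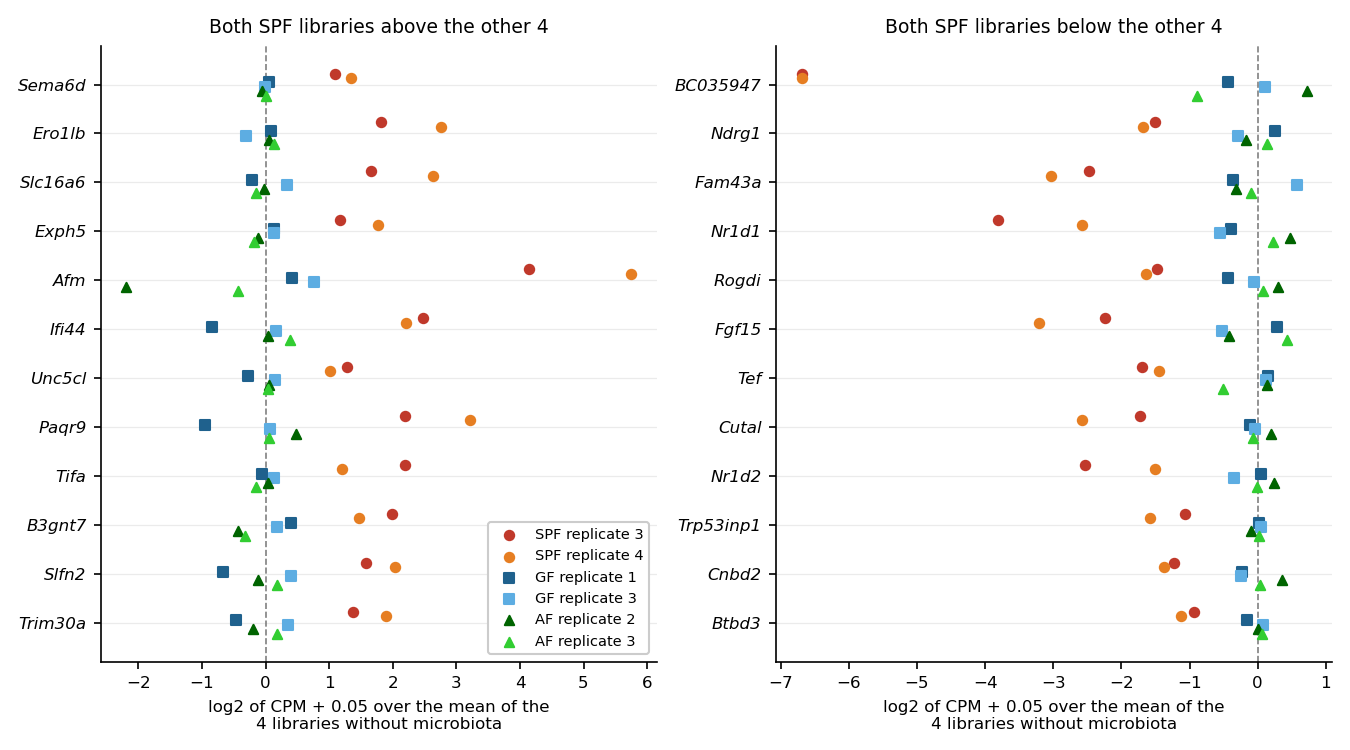
Levels of the 24 named genes in each library, as log2 of CPM + 0.05 over the mean of the 4 libraries without microbiota (dashed line). Circles are SPF, squares GF and triangles AF. The left panel holds the genes above the range and the right panel those below, where BC035947, at 0 counts in SPF, is drawn at the offset.

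Gene lists were then read against the background of 11.9% of genes above and 11.5% below. The interferon response list had the highest share above, 62.7% (42 of 67 tested, 0 below), and the tuft cell and enteroendocrine lists the highest shares below, 82.4% and 76.2%. With all 6 libraries, proliferation, intraepithelial lymphocyte, myeloid and stromal genes had 0 members outside on either side. These zeros rested on single libraries: 25 of 30 lymphocyte and T cell genes lay above without GF replicate 3, where 15.9% of all genes did, and the proliferation list had 12 of 26 above without SPF replicate 4 and 24 below without SPF replicate 3. With only 1 SPF library the shares over all genes rose, to 22.7% above and 19.6% below without SPF replicate 4 and to 31.2% and 36.2% without SPF replicate 3, so list counts in these settings are read against those shares. Without SPF replicate 3, 40 of 46 xenobiotic, 19 of 24 lipid absorption, 19 of 27 fatty acid oxidation, 15 of 22 peptide and 13 of 14 sugar genes lay above, and 17 of 27 cholesterol synthesis, 15 of 17 crypt stem cell, 19 of 20 Paneth and 17 of 17 goblet genes below. By edgeR 0 members of any list were called.

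**Figure D3:**
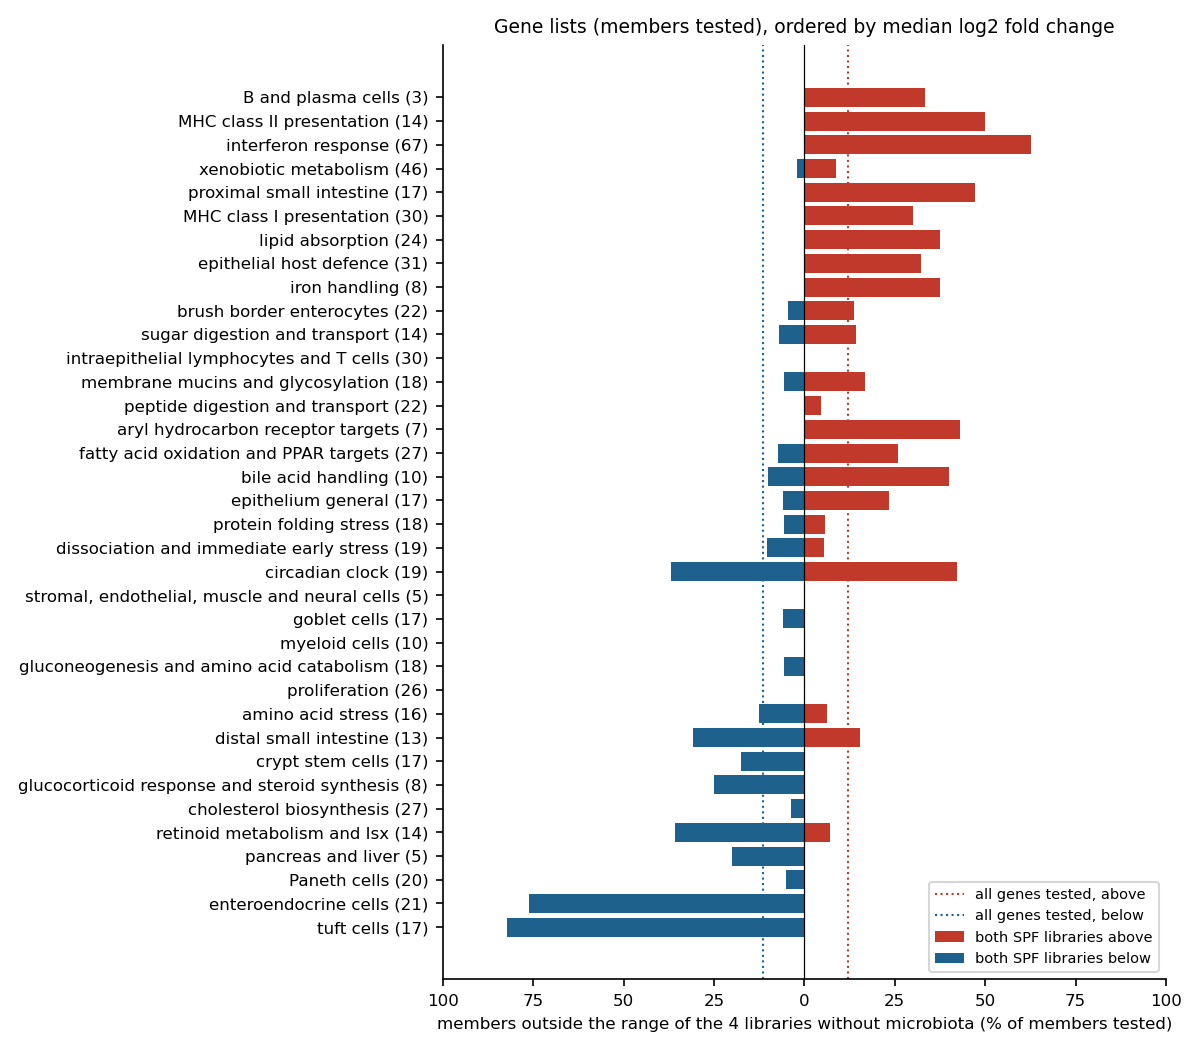
For each gene list with 3 or more members tested, red bars give the percent of members with both SPF libraries above the 4 others and blue bars, drawn to the left, the percent below. Dotted lines mark the same shares over all genes tested, 11.9% and 11.5%. Interferon genes reach 62.7% above, tuft cell genes 82.4% below, and clock genes extend to both sides.

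Interferon-induced genes stood together. The list's median log2 fold change was 0.87, against -0.02 over all genes tested, with 64 of 67 members higher in SPF, 38 at an unadjusted p below 0.05 by edgeR and 13 called by DESeq2, all 13 higher. Ifi44, an interferon-induced protein gene (chr3:151730922-151749960), stood at 14.6 and 12.2 CPM in SPF against 1.42, 2.91, 2.66 and 3.39 CPM, a log2 fold change of 2.38 ± 0.35 (DESeq2 adjusted p = 1.07e-05). Trim30a, an interferon-induced TRIM protein gene (chr7:104409025-104465193), stood at 22.9 and 32.9 CPM against 6.35, 11.2, 7.68 and 9.92 CPM. In both genes the lowest library was GF replicate 1, and the other 3 lay well under SPF.

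Herc6, the mouse ligase that attaches the ubiquitin-like protein ISG15, stood at 37.9 and 58.1 CPM against 10.4, 20.9, 15 and 13.5 CPM. Ddx60, a helicase of antiviral defence (chr8:61928087-62038244), stood at 80.2 and 119.9 CPM against 25.2, 45.7, 37.8 and 29.9 CPM, 2.89-fold higher. Irgm2, an interferon-induced GTPase, stood at 34.2 and 50.5 CPM against 9.31, 18.6, 10.3 and 7.13 CPM. It overlaps the more abundant Igtp on the same strand, so its reads are uncertain. Igtp lay above the range as well, at a mean of 98.4 CPM in SPF against 27.4 CPM. Within the 4, GF replicate 3 was the highest for Herc6, Ddx60 and Irgm2, and SPF replicate 4 the highest of all.

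Ifit1, an interferon-induced protein that binds viral RNA, stood at 65.3 and 137 CPM against 16.2, 34.3, 46.5 and 39.3 CPM. Cxcl10, a chemokine that draws T cells, was low throughout, at 2.38 and 1.30 CPM against 0.329, 0.677, 0.627 and 0.356 CPM. The list's centred level was 0.44 and 0.85 in SPF and -0.94, -0.04, -0.01 and -0.27 in the others, so GF replicate 1 was lowest and the other 3 lay closer together. On TPM 49 members lay above, where 10.3% of all genes did. Without SPF replicate 4 the list's median was 0.71, and without GF replicate 3, the library with most lymphocyte RNA, it was 0.99, with 45 members above where 25 of the 30 lymphocyte genes also lay above. The part of lymphocyte RNA in the interferon levels was not tested.

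The promoters of 33 of the 42 interferon genes above the range matched a RefSeq entry (GRCm38.p6, 250 bases before to 50 after the start). The core of the interferon-stimulated response element, a motif of interferon-induced promoters, is 2 copies of GAAA in the same direction with 2 bases between them, and this repeat was searched on both strands. It was found in 19 of the 33 (57.6%), against 3.49% of 27025 promoters and 3.07% of the 9880 promoters of genes tested. Of the 17 promoters of list members whose ranges overlapped, 7 held it (41.2%). Trim30a (chr7:104465144-104465443, minus strand) and Ddx60 (chr8:61927837-61928136, plus strand) are shown because both genes were among the most separated and carry the repeat, which is in capitals, in Trim30a as its reverse complement.
Trim30a: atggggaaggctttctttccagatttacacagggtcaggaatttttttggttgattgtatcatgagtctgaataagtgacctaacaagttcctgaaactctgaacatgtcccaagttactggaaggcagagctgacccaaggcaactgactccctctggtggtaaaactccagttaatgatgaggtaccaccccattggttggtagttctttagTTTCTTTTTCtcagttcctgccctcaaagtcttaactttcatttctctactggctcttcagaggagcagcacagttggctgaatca
Ddx60: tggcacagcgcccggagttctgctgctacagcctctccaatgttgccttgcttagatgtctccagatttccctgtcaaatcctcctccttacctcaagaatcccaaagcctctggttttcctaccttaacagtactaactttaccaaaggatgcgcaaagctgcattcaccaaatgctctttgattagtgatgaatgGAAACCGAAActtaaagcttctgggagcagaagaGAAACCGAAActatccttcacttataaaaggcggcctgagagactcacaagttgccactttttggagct
The Ddx60 window held 2 copies of identical sequence and the Trim30a window 1. Ifi44 and Herc6, though separated as widely, had no match in their windows.

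Host defence genes of the epithelium lay above in 10 of 31 members tested (32.3%) and below in 0, with a median log2 fold change of 0.54. The count above was 20 without SPF replicate 4, where 22.7% of all genes lay above, and without SPF replicate 3, 15 lay above and 5 below. Reg3b and Reg3g encode secreted C-type lectins that act on bacteria, and lie 92.8 kb apart on chromosome 6. Reg3b (chr6:78370657-78373466) stood at 2962 and 1073 CPM in SPF against 343, 417, 128 and 169 CPM, and Reg3g (chr6:78466269-78468872) at 1577 and 683 CPM against 217, 237, 30.8 and 38.4 CPM. In both, the AF libraries were lower than the GF libraries, and the lower SPF library was 2.57 and 2.89 times the highest of the 4. The log2 fold changes were 2.93 ± 0.58 and 3.11 ± 0.87, with DESeq2 adjusted p of 1.94e-04 and 0.0149.

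Saa1, an acute-phase protein, was nearly silent without microbes, at 0.0730, 0.677, 0 and 0.0594 CPM, and stood at 10.2 and 4.31 CPM in SPF. Its 4 values rest on 13 counts in all. Duox2, the oxidase that makes hydrogen peroxide at the apical surface, and Duoxa2, its maturation factor, lie 450 bases apart on chromosome 2. Duoxa2 stood at 31.2 and 22.8 CPM against 2.23, 7.52, 2.35 and 0.357 CPM and Duox2 at 115 and 73.8 CPM against 18.7, 41.9, 7.99 and 4.99 CPM. Both genes of the pair had the same order, SPF above GF replicate 3 and that above the remaining 3.

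Nos2, the inducible nitric oxide synthase, stood at 42 and 24.5 CPM against 12.6, 8.74, 0.313 and 0.178 CPM (2.58 ± 1.22, edgeR adjusted p = 0.431). The AF libraries were near 0 and the GF libraries between them and SPF. Pigr, the receptor that carries IgA across the epithelium, stood at 3156 and 4051 CPM against 2669, 2675, 1239.8 and 1497 CPM, again with AF below GF. Il18, an epithelial cytokine, stood at 44.1 and 50.1 CPM against 25.1, 20.5, 39.8 and 44.2 CPM, where AF replicate 3 overlapped the lower SPF library. Fut2, the fucosyltransferase that makes H antigen, was low at 4.95 and 1.37 CPM against 2.99, 5.96, 4.39 and 4.52 CPM, with SPF replicate 4 below the 4 and SPF replicate 3 among them.

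Tifa and Alpk1 form a sensing pair: ALPK1 is a kinase that responds to bacterial heptose sugars, and TIFA is the adaptor it phosphorylates on the way to NF-κB. Their genes are neighbours on chromosome 3, 9.3 kb apart with no annotated gene between them. Tifa (chr3:127789805-127832164) stood at 39.3 and 19.6 CPM in SPF against 8.25, 9.42, 8.78 and 7.73 CPM, with a log2 fold change of 1.79 ± 0.27 (DESeq2 adjusted p = 1.03e-04). Alpk1 (chr3:127670310-127780527), named only once its values were known, stood at 19.3 and 10.7 CPM against 2.96, 3.79, 1.10 and 2.44 CPM, with 2.53 ± 0.45 (3.32e-04). For both, SPF replicate 3 was the higher SPF library, and the 4 others were close together for Tifa and more spread for Alpk1. Ap1ar, which overlaps Tifa on the opposite strand, lay above the range as well, at a mean of 55.1 CPM in SPF against 47.3 CPM.

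Genes of MHC class I presentation lay above in 9 of 30 members (30.0%), below in 0, with a median log2 fold change of 0.58. Nlrc5, the transactivator of these genes, stood at 23.9 and 40.00 CPM in SPF against 1.46, 14.4, 6.35 and 4.10 CPM, 4.90-fold higher. Tap1, a subunit of the peptide transporter, stood at 132 and 188 CPM against 56.5, 108, 70.4 and 49 CPM, and H2-Q1, a non-classical class I gene, at 107 and 221 CPM against 63.8, 82.2, 60.2 and 52.1 CPM. Nlrc5 spread widely within the 4, with GF replicate 1 the lowest and GF replicate 3 the highest. B2m, the invariant light chain, stood at 754 and 1259 CPM against 508, 737, 535 and 439 CPM, and H2-K1, a classical heavy chain, at 1240.4 and 2112 CPM against 729.9, 1331, 1109 and 864 CPM. B2m cleared GF replicate 3 by a factor of 1.02, while H2-K1 overlapped it. Without GF replicate 3, 22 of the 30 lay above, where 15.9% of all genes and 25 of 30 lymphocyte genes did, and the part of lymphocyte RNA in the class I levels was not tested. The class I median was 0.33 without SPF replicate 4, and without SPF replicate 3, 20 members lay above and 4 below.

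Genes of MHC class II presentation lay above in 7 of 14 members, below in 0, with a median of 1.26. Ciita, the master regulator, stood at 8.66 and 13.7 CPM in SPF against 1.97, 7.65, 0.470 and 0.654 CPM, and Cd74, the invariant chain, at 279 and 328 CPM against 10.2, 219.8, 3.13 and 2.91 CPM. For both, GF replicate 3 stood near SPF and the other 3 far below it. H2-Ab1, a class II beta chain, stood at 122 and 187 CPM against 13.1, 124, 6.58 and 4.87 CPM, and GF replicate 3 overlapped SPF. GF replicate 3 was also the library with the most lymphocyte RNA, and the part of other cells in the class II levels was not tested. Without it the list's median was 2.08 and 10 members lay above, where 15.9% of all genes and 25 of 30 lymphocyte genes did. Ctss, a lysosomal protease that trims the invariant chain, was 61.8 and 95.9 CPM against 46.6, 52.6, 39.9 and 35.2 CPM, and Lgmn, another such protease, 15.7 and 18.2 CPM against 8.47, 8.67, 12.4 and 10.2 CPM, neither high in GF replicate 3 alone.

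The circadian clock split in both directions. Of 19 clock genes tested, 8 lay above the range (42.1%) and 7 below (36.8%), and only 4 overlapped. The median log2 fold change, -0.06, hides this split, and its sign was not stable. It was 0.34 on log2 TPM, where the median of all genes also shifted to 0.15, 0.42 when SPF replicate 3 was left out, 0.02 when GF replicate 1 was, and 0.23 and 0.27 when AF replicates 2 and 3 were, each in turn. In the clock, ARNTL with CLOCK or NPAS2 switches on Per, Cry, Nr1d and Dbp genes through E-boxes, the PER and CRY proteins feed back on it, and the NR1D receptors repress Arntl, Npas2 and Nfil3. DESeq2 called 2 members higher and 6 lower. The time of day of collection is not given, and its part in the clock levels was not tested.

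The nuclear receptors and their fellow outputs were on the low side. Nr1d1, which encodes REV-ERBα (chr11:98767932-98775333), stood at 7.10 and 16.8 CPM in SPF against 77, 68.5, 139.8 and 117 CPM, 8.45-fold lower in SPF (-3.08 ± 0.49, DESeq2 adjusted p = 1.45e-07). The GF libraries lay below the AF libraries, and both SPF values lay at least 4.07-fold below GF. Nr1d1 overlaps Thra, a thyroid hormone receptor gene on the opposite strand, which was also below the range but by less, at 54.2 and 70.6 CPM against 81.5, 80.8, 101 and 95.3 CPM. Nr1d2, which encodes REV-ERBβ (chr14:18204054-18239127), stood at 2.52 and 5.20 CPM against 15.4, 11.6, 17.6 and 14.7 CPM (-1.95 ± 0.35).

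Tef and Dbp encode PAR bZIP factors that drive output genes. Tef (chr15:81802421-81826863) stood at 5.08 and 6.02 CPM in SPF against 18.4, 18, 18.3 and 11.6 CPM, AF replicate 3 being apart from the other 3. Dbp stood at 0.733 and 0.479 CPM against 3.18, 2.78, 3.92 and 3.74 CPM, 5.50-fold lower, although it overlaps the more abundant Sphk2 on the opposite strand. Among the period genes, Per1 stood at 14.3 and 5.95 CPM against 27.9, 43.9, 36 and 39.5 CPM and Per3 at 1.28 and 0.821 CPM against 2.88, 2.85, 3.92 and 3.03 CPM, both lower in SPF. Ciart, a clock repressor, was barely detected, at 0.0916 and 0.0684 CPM against 0.511, 0.406, 0.627 and 0.713 CPM.

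On the high side, Per2 stood at 26.6 and 30.5 CPM in SPF against 8.40, 13.8, 12.9 and 15.6 CPM (1.18 ± 0.25, DESeq2 adjusted p = 0.0185), opposite in direction to Per1 and Per3. Cry1 stood at 17.8 and 21.6 CPM against 5.08, 10.02, 8.70 and 11.1 CPM. Arntl, which encodes BMAL1, stood at 43.7 and 57.2 CPM against 25.1, 32.2, 34.6 and 33.9 CPM, and its partner Npas2 at 35.4 and 61.6 CPM against 27.2, 29.9, 26.8 and 22.9 CPM. The other partner of Arntl, Clock, overlapped at 36.4 and 46.2 CPM against 38.9, 29.8, 33.5 and 36.7 CPM. Nfil3, a repressor of PAR bZIP targets, stood at 38.5 and 45.3 CPM against 12.2, 18.6, 22 and 25.5 CPM. GF replicate 1 was the lowest of the 4 for Per2, Cry1, Arntl and Nfil3. Usp2 and Bhlhe40 also lay above, at 26 and 39.1 against 21.1, 19.4, 11.9 and 12 CPM and 74.2 and 101 against 42.5, 43.5, 72.3 and 71 CPM. There were 8 clock genes above and 8 below without SPF replicate 4, where 22.7% and 19.6% of all genes did. Without SPF replicate 3 they were 9 and 8, where 31.2% and 36.2% of all genes did, so the clock shares then stood much nearer to those of all genes. With a GF or AF library left out, 8 lay above and 6 to 7 below.

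**Figure D4:**
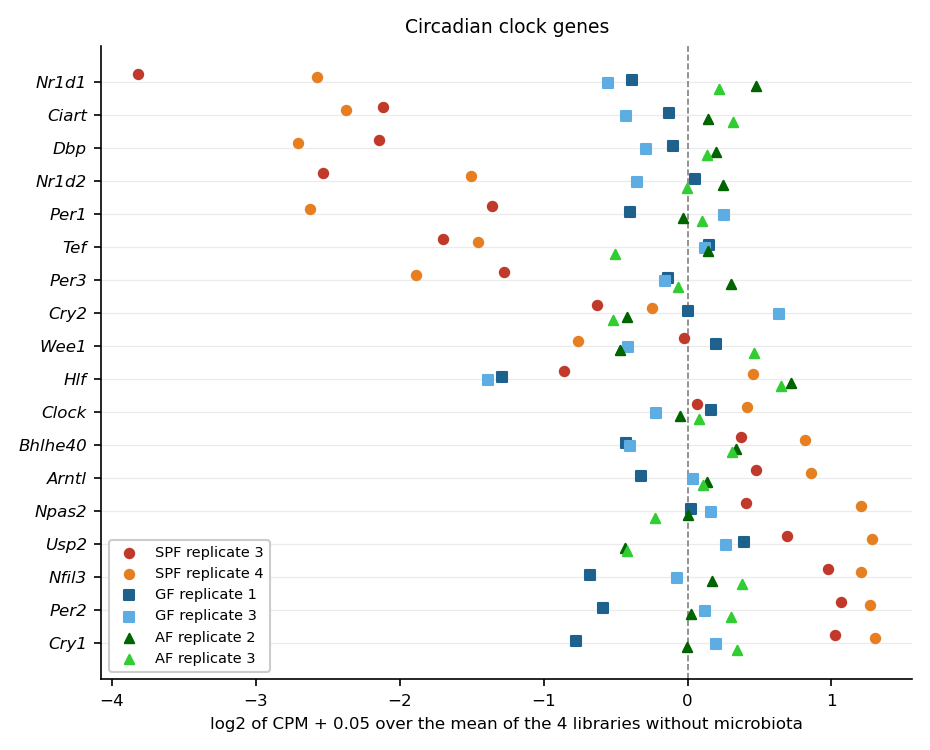
Of the 19 clock genes tested, 18 are drawn, ordered by fitted log2 fold change, with each library's log2 of CPM + 0.05 over the mean of the 4 libraries without microbiota. Circles are SPF, squares GF and triangles AF. The 7 genes from Nr1d1 to Per3 have both SPF circles left of all others, and the 7 from Bhlhe40 to Cry1 have both to the right.

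Promoters of the 7 clock genes below the range were all in the RefSeq table. The E-box CACGTG, which reads alike on both strands, was in 3 of them (42.9%) against 7.2% of all promoters and 9.96% of those of genes tested. The D-box TTATGNAA, searched on both strands, was in 2 (28.6%) against 3.54% and 1.96%. The core of the element that the NR1D receptors bind, TAGGTCA on either strand, was in 0 of the 7, against 2.6% and 1.93%. Of the 5 promoters found for the genes above, 1 held an E-box, 0 a D-box and 1 the NR1D element. The Tef window (chr15:81802423-81802722, plus strand) is shown with its E-box in capitals.
Tef: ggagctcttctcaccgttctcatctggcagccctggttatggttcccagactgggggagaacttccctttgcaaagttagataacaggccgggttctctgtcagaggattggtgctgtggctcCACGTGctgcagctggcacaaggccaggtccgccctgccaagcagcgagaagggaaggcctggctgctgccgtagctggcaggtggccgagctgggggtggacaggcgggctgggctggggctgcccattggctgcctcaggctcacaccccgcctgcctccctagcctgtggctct
Nr1d1 had none of these motifs in its window.

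Tuft cell genes lay below the range in 14 of 17 members tested (82.4%), above in 0, with a median log2 fold change of -2.0. Alox5ap, which helps make leukotrienes, stood at 1.69 and 0.479 CPM in SPF against 3.83, 6.91, 9.17 and 7.19 CPM. Dclk1, a kinase used as a tuft marker (chr3:55242364-55539068), stood at 2.75 and 0.957 CPM against 5.81, 6.37, 8.93 and 8.74 CPM. Trpm5, the cation channel of taste signalling, stood at 31.2 and 8.48 CPM against 42.2, 62.2, 88.2 and 95.5 CPM, and Matk, a kinase, at 30.2 and 5.95 CPM against 47.3, 70.4, 113 and 109 CPM. In each, SPF replicate 4 was far below SPF replicate 3, and SPF replicate 3 was itself below all 4, with GF under AF for Trpm5 and Matk. Pou2f3, the factor that specifies tuft cells, stood at 1.15 and 0 CPM against 2.15, 3.32, 4.86 and 3.98 CPM. Rgs13, a regulator of G protein signalling, stood at 0.733 and 0.0684 CPM against 1.83, 2.44, 2.98 and 2.67 CPM. Without SPF replicate 3 the list's median was -3.83. Without SPF replicate 4 it was -1.27, with 15 of its members below where 19.6% of all genes were. On TPM 12 of 17 lay below, where 4.33% of all genes did. In bulk RNA fewer cells of a type and less RNA per cell cannot be told apart.

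Enteroendocrine genes lay below in 16 of 21 (76.2%), above in 0, with a median of -1.64. The hormone genes spread most: Sst, somatostatin, stood at 50.1 and 3.42 CPM in SPF against 238, 244, 228 and 386 CPM, and Gip, the incretin of proximal K cells, at 144 and 16.8 CPM against 234, 676, 488 and 759.7 CPM. Ghrl, ghrelin, stood at 104 and 8.14 CPM against 136, 319, 153 and 211 CPM, so the higher SPF library was close to GF replicate 1. Chga, a granule protein, stood at 221 and 69.8 CPM against 299, 763, 361 and 513 CPM. Pcsk1, which cleaves prohormones, stood at 28.3 and 10.1 CPM against 35.5, 78, 50.5 and 61.3 CPM, and Scg5, the chaperone of the related convertase PCSK2, at 3.62 and 1.16 CPM against 6.90, 15.6, 9.09 and 11.1 CPM. Insm1, a factor of endocrine differentiation, stood at 4.49 and 1.71 CPM against 4.86, 11.2, 9.48 and 11.1 CPM. SPF replicate 4 was lowest in all 7, and SPF replicate 3 lay just under the lowest of the 4 in several. On TPM 8 of 21 members lay below, where 4.33% of all genes did, against 11.5% on CPM. The median was -1.0 without SPF replicate 4 and -3.18 without SPF replicate 3.

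The other secretory and crypt lists did not separate in this way with all 6 libraries. Paneth cell genes lay below in 1 of 20, goblet cell genes in 1 of 17, crypt stem cell genes in 3 of 17 and proliferation genes in 0 of 26. SPF replicate 4 was low for all of them while SPF replicate 3 was at or above the middle of the 4. The goblet member below the range was Guca2a, guanylin, at 87.3 and 61.9 CPM against 195, 113, 166 and 131 CPM. With the crypt marker score as a covariate the log2 fold changes of Dclk1, Alox5ap and Sst were -1.78, -2.47 and -3.25, against -1.98, -2.59 and -3.35 without it. That score was -1.87 in SPF replicate 4 and -0.153 to 0.832 in the other libraries. The covariate thus came close to marking SPF replicate 4 alone, and this fit cannot decide the part of crypt RNA in these values.

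**Figure D5:**
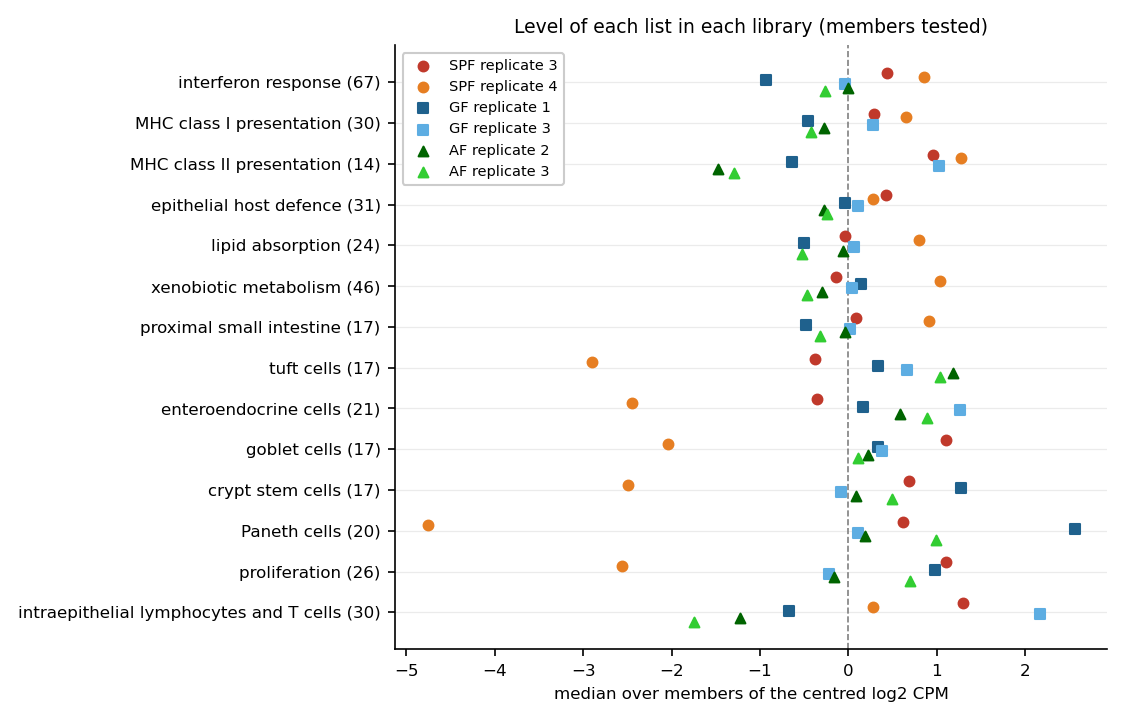
Median over members of the centred log2 CPM of 14 lists in each library, where 0 is the mean of the 6 libraries. Circles are SPF, squares GF and triangles AF. Both SPF circles lie right of the others for interferon and host defence genes, and narrowly so for MHC class I and proximal genes. Both lie left of the others for tuft and enteroendocrine genes. For goblet, crypt, Paneth and proliferation genes SPF replicate 4 lies far left and SPF replicate 3 among or right of the others.

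Some genes of fat absorption and of the proximal intestine lay above, and the others overlapped. Lipid absorption genes lay above in 9 of 24 (37.5%), below in 0, with a median of 0.56, and proximal small intestine genes in 8 of 17 (47.1%), below in 0, with a median of 0.70. The proximal genes above include Fabp1, Apoa4, Apoc2, Slc40a1, Slc2a2 and Cyp3a11, which are also described here as lipid, iron, sugar or xenobiotic genes. The proximal count is therefore not a separate result beside those lists. Fabp1, a fatty acid carrier, stood at 1495 and 2939.7 CPM in SPF against 849, 969, 934 and 678 CPM. Apob, the scaffold of chylomicrons, stood at 1629 and 3412 CPM against 956, 1203, 1127 and 822 CPM, and Mttp, which loads it with lipid, at 1322 and 2397 CPM against 1036, 937, 714 and 603 CPM. In each, SPF replicate 4 was about 2 times SPF replicate 3, and SPF replicate 3 lay closer to the 4 than to SPF replicate 4. Apoc2, the cofactor of lipoprotein lipase, stood at 949 and 1986 CPM against 374, 758, 658 and 494 CPM, and Sar1b, a GTPase of chylomicron export, at 54.9 and 89.7 CPM against 49.4, 40.8, 32.2 and 32.3 CPM. Apoa4 touched the edge, its lower SPF value being 1.01 times GF replicate 3. Without SPF replicate 4 the lipid median was 0.06 and the proximal median 0.30, and without SPF replicate 3 they were 0.94 and 1.05.

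Xenobiotic metabolism genes had a median of 0.73, yet only 4 of 46 lay above (8.70%, under the background of 11.9%) and 1 below. Cyp3a11, the main drug-oxidising P450, stood at 332 and 1193 CPM in SPF against 177, 217, 57.9 and 43.1 CPM, and Ces2a, a carboxylesterase, at 266 and 688 CPM against 132, 186, 174 and 112 CPM. Both had GF above AF replicate 3, and SPF replicate 4 at more than 2 times SPF replicate 3. Abcg2, an efflux pump, stood at 98.9 and 164 CPM against 89.2, 84.4, 79.4 and 68.6 CPM. The list's median was 0.02 without SPF replicate 4 and 1.19 without SPF replicate 3, so most of its size rested on SPF replicate 4. Ugt1a6a shares exons with its family, and RSEM's posterior SD was up to 18.2% of its count, so its value is not given.

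Iron handling had 3 of 8 members above. Slc11a2, the apical iron transporter DMT1, stood at 70.2 and 120.2 CPM in SPF against 46.2, 54.3, 41.4 and 40.6 CPM, and Slc40a1, the basolateral exporter ferroportin, at 62.5 and 156 CPM against 24.9, 36.6, 51.4 and 41.3 CPM. DESeq2 called both, with adjusted p of 0.0314 and 0.0454, and edgeR's quasi-likelihood test called neither, with adjusted p of 0.331 for both. Slc2a2, the basolateral hexose transporter GLUT2, stood at 160.1 and 418 CPM against 86.8, 99, 137 and 133 CPM, 1 of 2 sugar genes above among 14. Slc36a1, a proton-coupled amino acid transporter, stood at 98.9 and 168 CPM against 48, 66, 51 and 42.7 CPM and was the only one of 22 peptide digestion and transport genes above. Muc13, a membrane mucin, stood at 2084 and 2354 CPM against 916, 1237, 913 and 852 CPM, where both SPF libraries agreed closely (DESeq2 adjusted p = 2.46e-04).

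Of 27 genes of fatty acid oxidation and PPAR targets, 7 lay above (25.9%) and 2 below. Of the 7, 4 act in mitochondrial or peroxisomal oxidation: Cpt2 stood at 93.3 and 134 CPM in SPF against 65.1, 73.1, 66.1 and 54 CPM, Hadha at 210.5 and 301 CPM against 162, 160.1, 181 and 158 CPM, Hadhb at 93.5 and 134 CPM against 80.2, 68.3, 72.6 and 72.4 CPM, and Ehhadh at 97 and 185 CPM against 83.6, 70.6, 91 and 77.4 CPM. Hadha and Hadhb encode the subunits of the mitochondrial trifunctional protein. In all 4 genes the SPF libraries spread more than the 4 others did. Angptl4, an inhibitor of lipoprotein lipase and a PPAR target, did not separate: it stood at 30.1 and 52 CPM in SPF against 120.5, 206, 49.6 and 32.9 CPM, with GF above and AF about level with SPF. Pck1, the gluconeogenic enzyme, had the same shape at 72 and 166 CPM against 380.4, 474, 113 and 70.8 CPM.

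Bile acid genes had 4 of 10 above and 1, Fgf15, below. Nr1h4, which encodes the bile acid receptor FXR and switches on Fgf15, stood at 36.5 and 48.7 CPM in SPF against 32.6, 29.3, 24.4 and 29 CPM, and Abcc3, a basolateral exporter, at 100.1 and 173 CPM against 68.8, 99, 44 and 36.8 CPM. Fgf15 and Nr1h4 thus lay on opposite sides. Of the distal small intestine list, which also holds Fgf15, 4 of 13 lay below and 2 above, with a median of -0.48.

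Retinoid genes lay below in 5 of 14 (35.7%) and above in 1. Rbp2, the abundant retinol carrier of enterocytes, stood at 1413 and 2836 CPM in SPF against 974, 1305, 934 and 763 CPM. Those named below the range were scarce: Rbp4, the plasma carrier, stood at 3.62 and 0.274 CPM against 5.40, 9.69, 9.64 and 14.6 CPM, and Ttr, its partner in plasma, at 2.70 and 0.410 CPM against 5.66, 6.16, 8.78 and 5.53 CPM. In both the SPF libraries were low, SPF replicate 4 much the lower. Isx, the homeobox repressor of retinoid uptake, split the pooled group instead, with 71.5 and 94.6 CPM in SPF against 81.3, 81.8, 1.33 and 0.832 CPM, GF being level with SPF and AF near 0.

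Cholesterol biosynthesis genes were lower in SPF by median (-0.56, 24 of 27 negative), but only Tm7sf2, a sterol reductase, lay below the range, at 14.6 and 16.4 CPM against 23.7, 24.5, 23.1 and 22.5 CPM. Of the glucocorticoid list 2 of 8 lay below, Per1 and Klf9, a hormone-induced zinc finger factor at 7.92 and 5.61 CPM against 13.2, 9.55, 12.1 and 15.5 CPM. Of the aryl hydrocarbon receptor list 3 of 7 lay above, with a median log2 fold change of 0.32. Tiparp and Arnt each cleared the highest of the 4 by a factor of only 1.07. Ugt1a6a, whose count was uncertain and whose value is not given, lay above too. The count above was 1 on library totals alone, where 8.46% of all genes lay above. It was 2 on TPM, where 10.3% did. The classic target, Cyp1a1, overlapped at 6.92 and 32.3 CPM against 34.7, 29.7, 2.82 and 6.36 CPM. Cyp1a1 was high in SPF replicate 4 and both GF libraries and low in the remaining 3.

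Inside the pooled group, AF and GF differed by edgeR's quasi-likelihood test in a 3-group fit for 2 genes (0.0151% of those tested), Isx and Pkd1l2. Pkd1l2, a polycystin-like channel gene named for this reason, had 0.0365, 0.0677, 35.1 and 28.3 CPM in the order given, against 0.0458 and 0.205 CPM in SPF. Both genes overlap the SPF range through 1 of the groups, so pooling hides them from the rule. Among markers of other cell types, lymphocyte genes lay outside in 0 of 30, at 314 and 125 CPM summed in SPF against 62.9, 526, 45.1 and 32.6 CPM, and myeloid genes in 0 of 10. Both SPF sums of lymphocyte genes thus exceeded all but GF replicate 3. Of B and plasma cell genes 1 of 3 lay above, the immunoglobulin light chain gene Igkc, at 2.11 and 0.752 CPM in SPF against 0.219, 0.0677, 0 and 0.0594 CPM, and of pancreas and liver genes 1 of 5 lay below, Ttr. Without GF replicate 3, 25 of 30 lymphocyte, 3 of 10 myeloid and 3 of 3 B and plasma cell genes lay above, where 15.9% of all genes did.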

How the data were processed

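The series holds 2 RNA-seq libraries each of SPF, GF and AF mice, from sorted gut epithelium with a TruSeq RNA kit per the labels. The tools named by the submitters' processing notes are RSEM, STAR 2.5.2b and edgeR 3.16.5, on GRCm38 (mm10). Neither the annotation release nor the strand setting is given in the sources used here. Per the file headers, the authors deposited RSEM expected counts per gene, not scaled between libraries, in which reads that fit several genes are split by estimate. TPM, scaled by effective length and library, were deposited in the same tables. RSEM's posterior standard deviation of the count was deposited too and used to mark uncertain genes.

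Expected counts were rounded (23.5% of values above 0 were not whole). Of 51912 IDs, 51719 matched a gene with a chromosome in GENCODE M21, the source of symbols and positions. The 193 others and 4181 X and Y genes stayed in library totals but not in the test. Libraries of a group differed beyond counting noise (chi-square per gene 44.6 to 239), so each was counted as 1 sample.

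Genes were tested with edgeR's quasi-likelihood method (edgeR 4.0.16, R 4.3.3), TMM scaling and filterByExpr, SPF against GF and AF as 1 group, and Benjamini-Hochberg adjustment over 13222 genes at 0.05. It had 4 residual and 3.16 prior degrees of freedom and a biological coefficient of variation of 0.361. It was also run on simulated counts with known changes, and the outcome is not reported here. Pooling puts the AF to GF difference into the spread. SE is the absolute log2 fold change over the square root of F. Order statistics alone could not reach 0.05: the smallest exact 2-sided permutation p for 2 against 4 is 0.133. Alternatives included DESeq2 1.42.0, limma 3.58.1 on log2(TPM + 1), other scalings and filters, and each library left out.

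The members and lists were chosen with earlier results of these data known. Named were, per direction, the 12 genes outside the range with the smallest edgeR p at 5 CPM or more (no predicted genes, no immunoglobulin or T cell receptor segments), up to 4 members per list by p, and a fixed set, of which some genes are not reported here. Alpk1, Duox2, Igkc, Mogat1, Thra, Pkd1l2, Irgm2, Ifit1, Cxcl10, Gip, Chga, Ghrl, Trpm5, Pou2f3 and the clock genes beyond Nr1d1, Tef, Dbp, Nr1d2, Per1, Per2 and Arntl were added after their values were seen. Promoters came from RefSeq on GRCm38.p6.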

Additional observations from a re-analysis of the deposited data

Results flagged for a closer look

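In 6 of 109 genes checked, 1 of the 4 libraries without microbiota stood apart from the other 3 by more than Dixon's 95% limit, a share near the 1 in 20 that chance gives. GF replicate 3 was high for Cd74 (220 CPM, nearest library 10.2 CPM), H2-Ab1 (124 CPM, nearest 13.1 CPM), Saa1 (0.677 CPM, nearest 0.0730 CPM) and Muc13 (1237 CPM, nearest 916 CPM). AF replicate 3 was low for Tef (11.7 CPM, nearest 18.0 CPM) and high for Sst (386 CPM, nearest 244 CPM). The same GF library held the highest sum of lymphocyte genes, and the part of this in its values was not tested.

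The effect of SPF differed between GF and AF for 2 genes by edgeR's quasi-likelihood test of AF against GF. Isx had an AF minus GF log2 fold change of -6.25 (adjusted p = 0.0176), with AF near 0 and GF level with SPF. Pkd1l2 had 9.17 (adjusted p = 0.0298), with SPF and GF near 0.

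The 4 Y-linked genes left out of the test, Ddx3y, Eif2s3y, Kdm5d and Uty, had no count in either SPF library and summed to 61.8 and 52.1 CPM in GF replicates 1 and 3 and to 59.6 and 53.1 CPM in AF replicates 2 and 3.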

How the results depend on the processing

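By edgeR's quasi-likelihood test 0 genes were called, and the alternatives gave 253 with DESeq2, 209 with the likelihood ratio test, 28 with no low-count filter, 2 with SPF against AF only, and 3 with X and Y genes kept in, namely Eif2s3y, Kdm5d and Ddx3y. Leaving out a library gave 0 to 1374 calls, all of the latter without SPF replicate 3, when the crypt-poor SPF replicate 4 stands alone and is assumed to vary like the others. The other alternatives run gave 0. Genes above the range numbered 103 and 42 with a gap of 1.5-fold and 2-fold, 2999 against AF only, and 1762 to 4330 with a library left out. Genes below numbered 351 and 148 with those gaps, 2902 against AF only, 933 on library totals alone, 572 on TPM, and 1602 to 5019 with a library left out, the highest counts being without SPF replicate 3. Without SPF replicate 4 they were 3164 and 2737. On log2 TPM the median of all genes shifted to 0.146.

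On TPM the number of members above was 17 for MHC class I, 15 for lipid absorption, 11 for xenobiotic metabolism and 12 for brush border genes. On CPM it was 9, 9, 4 and 3. Over all genes tested, 10.3% lay above on TPM and 11.9% on CPM. Of 109 genes described, 4 changed sign in any alternative. These were Cyp1a1 (-0.80 with the crypt covariate, -0.76 against GF only, -0.24 on library totals, and -1.41 to 0.81 with a library left out, below 0 without SPF replicate 4, AF replicate 2 or AF replicate 3), Fut2 (-1.69 to 0.16 with a library left out, above 0 without SPF replicate 4), Pck1 (0.38 against AF only) and Isx (-0.0095 against GF only).

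No paired analysis was possible because SPF and the pooled group share only the replicate number 3. At 1 count per 0.0365 to 0.0784 CPM, values under about 0.2 CPM rest on a few counts. Without microbiota, Afm and Saa1 rest on 14 and 13 counts in all.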
